A study of Mus musculus with 2 samples.

Results

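The Wnt ligands and their receptors were described in the hindbrain of the mouse embryo: 19 genes for secreted Wnt proteins, 10 genes for Frizzled receptors, and 5 genes for other receptors and co-receptors (Lrp5, Lrp6, Ror1, Ror2 and Ryk). These 34 genes were chosen by name, and all 34 were found among the 43346 genes of the deposited tables. Total RNA from whole hindbrains of B6NCrl embryos at 14.5 days of gestation was sequenced in 2 libraries, replicate 2 and replicate 1, which form 1 group with no second genotype, treatment or age. Each library was made from the hindbrain of 1 pup, per the labels, although the same labels give pooled sexes and 1 shared donor identifier. The pups were collected on different dates, and an effect of the date cannot be told apart from the difference between replicates. The data therefore give the level of each gene in this tissue and the spread between these libraries. No comparison between conditions was made.

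Wnt proteins are lipid-modified signals that act over short distances. A Wnt bound to a Frizzled together with Lrp5 or Lrp6 stabilises beta-catenin, which then enters the nucleus and works with TCF/LEF factors, whereas Wnts bound to Ror1, Ror2 or Ryk act largely without beta-catenin on cell polarity, movement and axon growth. In the embryonic hindbrain, Wnt signals are known from the midbrain-hindbrain boundary and the dorsal midline, where they act on progenitor growth and patterning, and from the growth of vessels into neural tissue.

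Levels are given as TPM, the share of all transcripts after correction for length, scaled to a fixed total, so levels of different genes can be set beside each other. The libraries held 33510896 expected counts in replicate 2 and 34929425 in replicate 1. The 3 counts that a count of 0 allows equal 0.0924 and 0.0889 CPM (gene counts scaled to a fixed total) in replicate 2 and replicate 1, which covers counting error only. The 9 markers of hindbrain position used here (Hox genes and Gbx2) reached 1 TPM in both libraries, with summed levels of 388.8 TPM in replicate 2 and 416.2 TPM in replicate 1. Of 7 forebrain markers, 1 reached 1 TPM in both, Lhx2, at 15.1 TPM in replicate 2 and 10.4 TPM in replicate 1, while Emx1 had no counts in either.

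At a limit of 1 TPM in both libraries, 24 of the 34 genes were detected, or 70.6%, against 34.8% of all genes and 62.5% of protein-coding genes. The detected genes were 10 of 19 ligands, 9 of 10 Frizzled receptors and 5 of 5 other receptors. The 10 remaining genes were below 1 TPM in both libraries. Just above the limit among the ligands stood Wnt1, at 1.53 TPM in replicate 2 and 1.64 TPM in replicate 1, and just below it Wnt2b, at 0.53 and 0.85 TPM. The 34 genes together held 193.6 TPM in replicate 2 and 192.7 TPM in replicate 1. The median gene of the 34 had a mean of 2.00 TPM, against 5.63 TPM for the median protein-coding gene, so as a group these are genes of low level.

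Ligand RNA came mostly from 2 genes. Wnt5a, which encodes a ligand that acts mostly without beta-catenin through Ror receptors, had 21.6 TPM in replicate 2 and 23.1 TPM in replicate 1 (mean 22.4 ± 1.04, SD, n = 2, as for every mean below). Wnt7b, which encodes a ligand that acts in vessel growth into the neural tube, had 20.96 and 22.21 TPM (mean 21.6 ± 0.884). The ranges of Wnt5a and Wnt7b overlapped, so their order cannot be given. Together they held 57.4% of the summed ligand level in replicate 2 and 59.9% in replicate 1, of totals of 74.2 and 75.7 TPM.

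The next ligands were separated from these by a clear gap. Wnt3, whose product acts through beta-catenin, had 7.37 TPM in replicate 2 and 7.12 TPM in replicate 1. Wnt7a, the close relative of Wnt7b, had 7.11 and 5.92 TPM, and Wnt5b, the close relative of Wnt5a, had 5.10 and 5.23 TPM. These genes kept the same order in both libraries without overlap, although the ranges of Wnt3 and Wnt7a lay 0.01 TPM apart. Wnt5a stood 4.24-fold above Wnt5b in replicate 2 and 4.42-fold above it in replicate 1, and Wnt7b stood 2.95-fold and 3.75-fold above Wnt7a. Wnt6, a ligand known from embryonic epithelia, had 3.55 TPM in replicate 2 and 3.47 TPM in replicate 1.

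Below Wnt6 came 4 ligands between 1.53 and 1.78 TPM. Wnt9a, known for its part in joint formation, had 1.70 TPM in replicate 2 and 1.66 TPM in replicate 1. Wnt11, a ligand of cell movements in gastrulation, had 1.57 and 1.78 TPM. Wnt4, a ligand needed for kidney tubule formation, had 1.55 and 1.76 TPM. Each of Wnt9a, Wnt11, Wnt4 and Wnt1 overlapped its neighbour in the order of levels. Wnt1, the ligand of the midbrain-hindbrain boundary and the dorsal midline that is required for the midbrain and cerebellum to form, was thus among the lowest of the detected ligands in RNA from the whole hindbrain. In bulk RNA a gene that is on in few cells and a gene with little RNA per cell cannot be told apart.

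The 9 ligands below 1 TPM summed to 2.11 TPM in replicate 2 and 1.76 TPM in replicate 1, which is 2.84% and 2.33% of the ligand level. Wnt2b had 36 expected counts in replicate 2 and 63 in replicate 1, and Wnt3a, a beta-catenin ligand of the tail bud and the hippocampal field, had 17 and 19. Wnt16, known from bone, had 11 expected counts in replicate 2 against 3 in replicate 1, Wnt2, which acts with Wnt2b in lung formation, had 8 against 3, and Wnt8b, known from the forebrain hem, had 6 against 1. Wnt9b, a kidney ligand, had 11 and 14 expected counts, and Wnt10a, a ligand of tooth and skin development, had 5 and 5. These counts are too few to order the genes: apart from the steps from Wnt3a to Wnt2 and from Wnt10a to Wnt8b, neighbours in the order of levels overlapped. Wnt8a, a ligand of the gastrulating embryo, had 0 expected counts in replicate 2 and 1 in replicate 1. Wnt10b, a ligand known from bone and fat, had 0 in both libraries. By counting error alone this allows levels of up to 0.0848 TPM in replicate 2 and 0.0775 TPM in replicate 1. The deposited credibility intervals of Wnt10b reached 0.136 and 0.123 TPM.

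**Figure D1:**
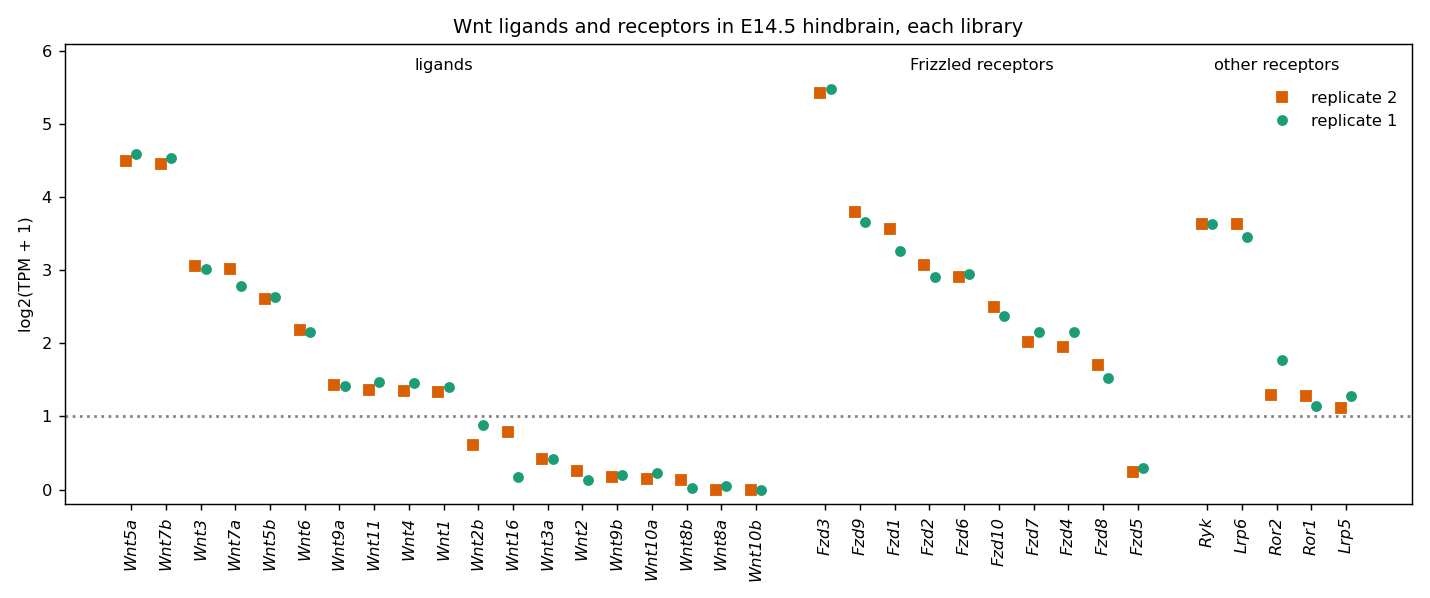
Levels of the 34 genes, grouped into ligands, Frizzled receptors and other receptors, with 1 point per library (replicate 2 and replicate 1) on a log2(TPM + 1) axis. Fzd3, at 41.9 and 43.9 TPM, lies above all others, and Wnt5a and Wnt7b overlap at the top of the ligands.

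Of the 10 Frizzled genes, Fzd3 stood far above the others. Fzd3, whose product guides the growth of major axon tracts and acts in planar cell polarity, had 41.9 TPM in replicate 2 and 43.9 TPM in replicate 1 (mean 42.9 ± 1.38), which is 45.3% and 48.4% of the summed Frizzled level. It was 3.26-fold above the next receptor gene of the family, Fzd9, in replicate 2, and 3.77-fold above it in replicate 1. Fzd6, the closest relative of Fzd3 and also a planar polarity receptor, had 6.50 and 6.73 TPM, so Fzd3 exceeded it 6.45-fold and 6.52-fold. This ratio differed least between the libraries of the 10 ratios computed, with an SD of 0.0490.

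The other Frizzled genes fell below 13 TPM. Fzd9 had 12.9 TPM in replicate 2 and 11.6 TPM in replicate 1, and Fzd10, of the same sequence group, had 4.63 and 4.19 TPM. Fzd4, the third gene of that group and the receptor for norrin in vessels, had 2.88 and 3.47 TPM. In the group of Fzd1, Fzd2 and Fzd7, receptors with overlapping roles in early development, Fzd1 was highest at 10.8 TPM in replicate 2 and 8.62 TPM in replicate 1. Fzd2 had 7.44 and 6.51 TPM, and Fzd7 had 3.07 and 3.45 TPM. Fzd8 had 2.25 TPM in replicate 2 and 1.87 TPM in replicate 1, while Fzd5, its closest relative and a receptor needed in the eye and yolk sac, had 0.18 and 0.23 TPM and was the only Frizzled gene below the detection limit.

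Summed by sequence group, Fzd3 and Fzd6 held 52.3% of the Frizzled level in replicate 2 and 55.9% in replicate 1. Fzd1, Fzd2 and Fzd7 held 23.1% and 20.5%, and Fzd4, Fzd9 and Fzd10 held 22.0% and 21.3%. Fzd5 and Fzd8 held 2.62% and 2.32%. In the order of levels, Fzd2 overlapped Fzd6, and Fzd7 overlapped Fzd4, whereas the other neighbours did not overlap between these libraries.

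Among the other receptors, Ryk and Lrp6 were high. Ryk, which encodes a Wnt-binding receptor with an inactive kinase domain that acts in axon guidance, had 11.4 TPM in both libraries (mean 11.4 ± 0.0212). Lrp6, the co-receptor of the beta-catenin pathway with the broader role in embryos, had 11.4 TPM in replicate 2 and 9.95 TPM in replicate 1. Lrp5, its relative known for roles in bone mass and retinal vessels, had 1.16 and 1.42 TPM, so Lrp6 exceeded it 9.81-fold and 7.01-fold. Ror1 and Ror2 encode receptor tyrosine kinases that bind Wnt5a. Ror1 had 1.42 TPM in replicate 2 and 1.21 TPM in replicate 1, overlapping Lrp5, and Ror2 had 1.45 and 2.41 TPM.

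The Wnt genes include pairs of neighbours on the chromosome that go back to old duplications. The members of each pair found here lay on different sides of the 1 TPM limit. Of the 19 ligands, 10 reached that limit in both libraries. There were 4 pairs of the listed genes with gaps of at most 100000 bases (coordinates are GRCm38). Wnt3 and Wnt9b lie within chr11:103727364-103817957 on opposite strands with 24328 bases between them, and Wnt3 exceeded Wnt9b 56.7-fold in replicate 2 and 47.5-fold in replicate 1. Wnt6 and Wnt10a lie within chr1:74771892-74804179 on the same strand with 6193 bases between them, and Wnt6 exceeded Wnt10a 32.3-fold and 20.4-fold. The lower genes of these pairs rest on 5 to 14 expected counts per library.

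In the other 2 pairs the lower gene was Wnt3a, at 17 and 19 expected counts, and Wnt10b, at 0 in both libraries. Their higher genes, Wnt9a and Wnt1, stayed below 2 TPM, so a limit of 2 TPM would split neither pair. Wnt9a and Wnt3a lie within chr11:59248033-59333552 on opposite strands, 16175 bases apart, and Wnt9a exceeded Wnt3a 5.15-fold in replicate 2 and 5.03-fold in replicate 1. Wnt1 and Wnt10b lie within chr15:98770712-98793837 on opposite strands, 11706 bases apart, with 68 expected counts of Wnt1 in replicate 2 and 80 in replicate 1. Against the floor of 3 counts per library for Wnt10b, the Wnt1 level was 18.05-fold higher in replicate 2 and 21.2-fold higher in replicate 1. These ratios leave out the error of Wnt1 and are not lower bounds. The deposited credibility intervals allow smaller ones. Their upper bound for Wnt10b was 0.136 TPM in replicate 2 and 0.123 TPM in replicate 1, and their lower bound for Wnt1 was 1.16 and 1.28 TPM.

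**Figure D2:**
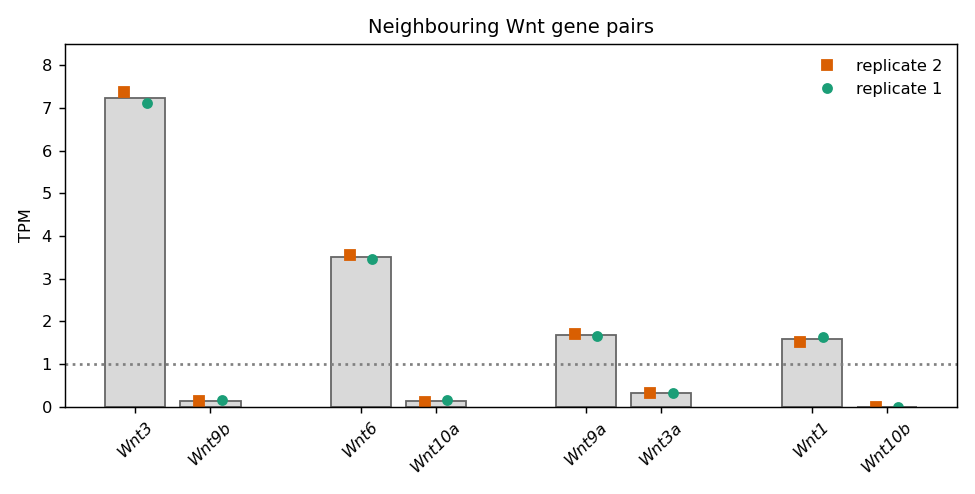
Levels of the 4 pairs of neighbouring Wnt genes in TPM on an axis from 0, with bars at the mean of the libraries, 1 point per library and the dotted line at 1 TPM. In each pair 1 gene lies above the detection limit of 1 TPM and its neighbour below it.

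The promoters of Wnt9b and Wnt3, the pair with the widest measurable difference in level, are shown to set their base composition side by side. They are the 250 bases before the RefSeq start of each gene, 5′ to 3′ on the strand of the gene, at chr11:103749822-103750071 on the minus strand for Wnt9b and chr11:103773925-103774174 on the plus strand for Wnt3 (GRCm38.p6). Capitals mark each CG, the dinucleotide that can carry DNA methylation in mammals.
Wnt9b promoter: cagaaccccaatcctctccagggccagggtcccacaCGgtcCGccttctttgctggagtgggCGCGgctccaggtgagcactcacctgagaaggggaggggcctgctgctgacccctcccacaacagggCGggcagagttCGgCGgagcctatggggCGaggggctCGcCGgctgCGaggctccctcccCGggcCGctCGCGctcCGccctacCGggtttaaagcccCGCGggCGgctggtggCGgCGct
Wnt3 promoter: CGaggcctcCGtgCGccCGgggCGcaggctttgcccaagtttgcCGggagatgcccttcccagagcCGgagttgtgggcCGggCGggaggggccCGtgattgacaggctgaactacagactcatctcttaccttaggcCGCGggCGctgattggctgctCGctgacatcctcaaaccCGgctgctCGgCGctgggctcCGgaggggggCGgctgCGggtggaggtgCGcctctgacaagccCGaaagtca
Each of these windows holds 22 CG. RefSeq windows were found for 24 of the 34 genes, 27 windows in all, and their median was 24 CG with a range of 4 to 48. Genes without a window included Wnt5a, Wnt7b, Fzd3 and Lrp6, so the most abundant ligands and the most abundant Frizzled gene are not covered. Wnt8a and Wnt10a also had none, and Wnt5b and Wnt11 had more than 1 window each. The median over all 32851 windows was 6, and 92.1% of those held at least 1 CG. The 19 windows of detected genes had a median of 25 CG and the 8 windows of the others a median of 21, with ranges of 4 to 48 and 5 to 41 that overlapped. Wnt1 had 23 CG and Wnt10b 14, and Wnt9a had 48 and Wnt3a 41. CG reads the same on both strands, and the count is a description of these windows only.

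Several of these genes were represented by more than 1 transcript, and the starts of the coding sequences are shown because the forms differ there. Among the genes at a mean of 5 TPM or more, Wnt5a, Wnt5b, Wnt7b, Lrp6 and Ryk had at least 2 transcripts at 0.5 TPM or more in both libraries. Wnt5a-201 begins its coding sequence at chr14:28506109-28506114 and continues at chr14:28511823-28511906 on the plus strand, and Wnt5a-202 begins within that second stretch, at chr14:28511877-28511906. Capitals mark the start codons (GENCODE M21 models, GRCm38).
Wnt5a-201: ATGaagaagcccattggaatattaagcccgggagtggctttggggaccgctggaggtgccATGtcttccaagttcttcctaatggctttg
Wnt5a-202: ATGtcttccaagttcttcctaatggctttg
The start codon of Wnt5a-202 is thus the second capital ATG of Wnt5a-201, 60 coding bases or 20 codons further on and in the same frame, and the RNA start sites of the forms lie 6655 bases apart. Wnt5a-202 had 12.2 TPM in replicate 2 and 12.7 TPM in replicate 1, and Wnt5a-201 had 6.96 and 7.68 TPM. The shorter coding form made up 55.8% ± 1.09 of the gene's level and the longer one 32.7% ± 0.746, a gap larger than the spread between the libraries. In expected counts, which are not corrected for length, the longer RNA was ahead, Wnt5a-201 with 940 in replicate 2 and 1134 in replicate 1 and Wnt5a-202 with 848 and 964. Wnt5a-206, a form of 361 bases annotated without a coding sequence, made up 5.89% ± 3.31 of the gene's level. That share rests on 9.12 expected counts in replicate 2 and 4.58 in replicate 1, or 0.504% and 0.214% of the gene's counts.

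Wnt5b showed the longer coding form as the larger share. Wnt5b-203 begins at chr6:119448136-119448254 and continues at chr6:119446519-119446582 on the minus strand, and Wnt5b-202 begins at chr6:119446519-119446548, with the start codons again in capitals.
Wnt5b-203: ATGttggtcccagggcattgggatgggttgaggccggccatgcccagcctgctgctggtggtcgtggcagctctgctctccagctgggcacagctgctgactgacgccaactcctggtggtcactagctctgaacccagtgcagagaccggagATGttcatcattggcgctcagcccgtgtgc
Wnt5b-202: ATGttcatcattggcgctcagcccgtgtgc
The forms differ by 153 coding bases, or 51 codons, in the same frame, and their RNA start sites lie 77107 bases apart. Wnt5b-203 had 3.92 TPM in replicate 2 and 3.26 TPM in replicate 1, and Wnt5b-202 had 1.18 and 1.97 TPM. Wnt5b-203 made up 69.6% ± 10.3 of the gene's level and Wnt5b-202 30.4% ± 10.3, so the order held in both libraries with a wide spread.

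The Ryk forms differ inside the coding sequence. The stretch below runs over chr9:102881735-102881754 and chr9:102885994-102886022 on the plus strand for Ryk-203, and capitals mark the 9 bases, coding bases 842 to 850, that Ryk-201 lacks.
Ryk-203: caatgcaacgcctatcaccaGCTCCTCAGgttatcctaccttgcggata
Ryk-201: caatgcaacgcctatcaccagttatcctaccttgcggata
The reading frame is kept, with 3 codons more in Ryk-203. Ryk-203 had 5.80 TPM in replicate 2 and 5.32 TPM in replicate 1, and Ryk-201 had 5.04 and 3.72 TPM. Their shares, 48.8% ± 3.07 and 38.4% ± 8.26, differed by little more than the wider of these SDs. The models also differ in whole length, 2505 bases for Ryk-203 and 2852 for Ryk-201. Ryk-204, annotated as a target of nonsense-mediated decay, had 0.22 TPM in replicate 2 and 1.57 TPM in replicate 1.

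For Wnt7b and Lrp6, 1 form dominated. Wnt7b-201 had 16.3 TPM in replicate 2 and 15.7 TPM in replicate 1, or 74.2% ± 5.10 of the gene's level, and Wnt7b-202 had 3.86 and 6.39 TPM, or 23.6% ± 7.32. The Lrp6 form of 9368 bases made up 87.3% ± 1.13 and a short form of 722 bases 10.8% ± 1.49. The share of the short form rests on 16.4 expected counts in replicate 2 and 12.9 in replicate 1, since a short transcript needs few reads for a given TPM.

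**Figure D3:**
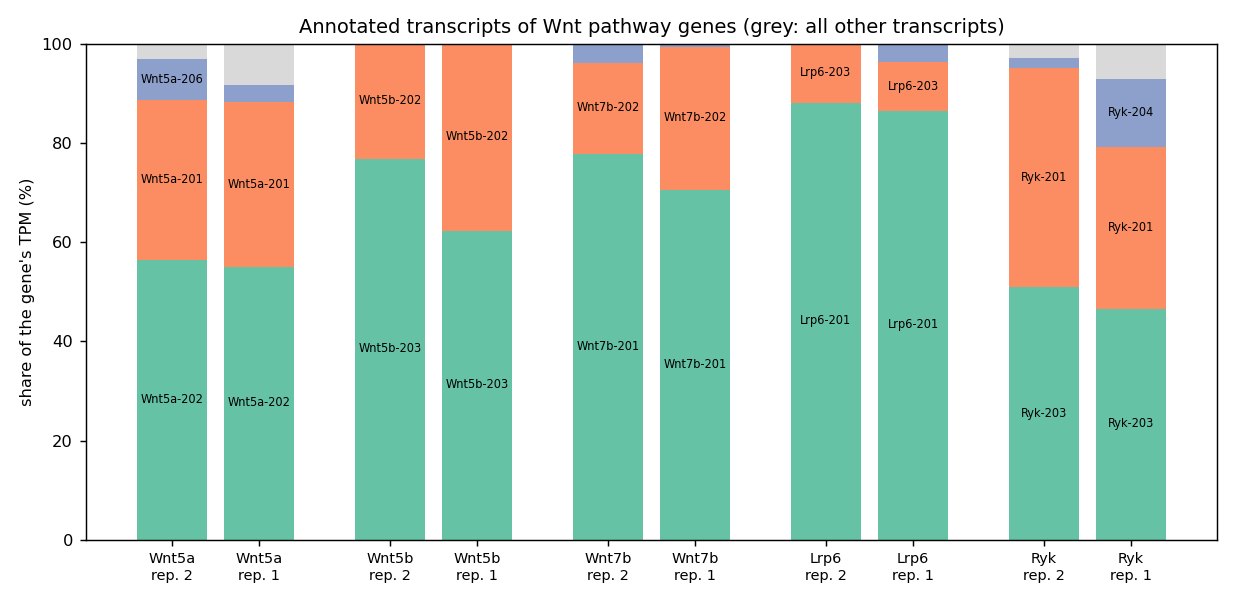
Stacked bars of the share of each transcript in the TPM of its gene, in percent, with 1 bar per library and the 3 highest transcripts of each gene in colour, for Wnt5a, Wnt5b, Wnt7b, Lrp6 and Ryk. The Wnt5a shares lie close together in the libraries (SD of 1.09 and 0.746 for its main forms), and the Wnt5b shares lie farther apart (SD of 10.3).

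The same exact binomial comparison was made of every gene between the libraries, to give the spread behind these levels. It sets the rounded expected counts of replicate 2 against those of replicate 1, scaled by the total gene count, for the 17664 genes whose mean count reached 10, two-sided and with Benjamini-Hochberg adjustment. A call says only that the libraries differed beyond the noise of counting, nothing about a condition. Such a difference may be technical, and whether the replicates reflect separate embryos rests on the labels alone. Of the 34 genes, 28 could be tested and 8 passed an adjusted p of 0.05, or 28.6%, against 34.4% of all genes tested. Higher in replicate 2 were 2 genes, Fzd1 and Lrp6, against a background of 15.7%, and lower were 6, Wnt2b, Wnt5a, Wnt7b, Fzd3, Fzd4 and Ror2, against 18.7%. The share of these genes that differed was therefore not above that of genes in general. With counts scaled to the spike-in RNAs, 5 of the 28 were called, or 17.9%, against 43.7% of all genes tested, and 4 of these 5 were higher in replicate 2, close to the 80.6% of calls over all genes.

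The widest difference of a detected gene was that of Ror2, with 110 expected counts in replicate 2 and 195 in replicate 1. The ratio of its scaled counts, replicate 2 over replicate 1, was 0.586, with a 95% exact binomial interval of 0.460 to 0.744 (adjusted p = 4.87e-05 by the exact binomial test). Wnt2b, at 36 against 63 expected counts, had a ratio of 0.594, with an interval of 0.383 to 0.908 (adjusted p = 0.0372 by the same exact test), and did not pass with spike-in scaling (adjusted p = 0.0899, exact test). Fzd4 had a ratio of 0.789 (adjusted p = 0.0385, exact test), which did not pass with TMM factors or DESeq2 size factors (adjusted p = 0.0521 and 0.0572, exact tests) or with spike-in scaling (adjusted p = 0.201, exact test).

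The most abundant genes of the list passed with small differences. Wnt5a had a ratio of 0.879 (adjusted p = 0.000409), Wnt7b of 0.894 (adjusted p = 0.0103) and Fzd3 of 0.908 (adjusted p = 0.000325), each by the exact binomial test. With scaling to the spike-in RNAs, Wnt5a, Wnt7b and Fzd3 no longer passed (adjusted p = 0.302, 0.621 and 0.775, exact tests). Fzd1 had a ratio of 1.19, with an interval of 1.08 to 1.32 (adjusted p = 0.0023), and Lrp6 of 1.10, with an interval of 1.03 to 1.17 (adjusted p = 0.0232), by the exact test. Fzd1, Lrp6 and Ror2 passed in the same direction under all 4 scalings run. Of the 34 genes, Fzd1 was also the only gene whose deposited credibility intervals did not overlap between the libraries, against 22.6% of all genes tested.

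In the authors' estimate, the Ror2 difference lay mostly in 1 form of the transcript, chosen for description after its values were seen. The form with the longer coding sequence, 2832 bases, had 110 expected counts in replicate 2 and 125 in replicate 1, or 1.45 and 1.5 TPM. The form with the shorter one, 2796 bases, had 0 expected counts in replicate 2 and 70.4 in replicate 1, or 0 and 0.91 TPM, which is nearly all of the gene's difference. The forms start 575 bases apart and have first coding stretches of their own, at chr13:53285781-53285877 for the longer form and chr13:53285466-53285526 for the shorter one, both on the minus strand, with the start codon in capitals.
Ror2, longer form: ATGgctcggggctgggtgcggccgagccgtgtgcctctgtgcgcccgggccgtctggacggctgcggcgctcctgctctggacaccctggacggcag
Ror2, shorter form: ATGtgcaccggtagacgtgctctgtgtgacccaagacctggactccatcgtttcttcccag
The forms share 2735 coding bases after these stretches of 97 and 61 bases. Reads in the shared part were divided between the forms by the authors' estimate. A change of form therefore cannot be told apart from a different division of reads in each library. The estimated forms also differed between the libraries in Fzd6, where both have a coding sequence of 2127 bases. The form of 4081 bases had 0 expected counts in replicate 2 and 276 in replicate 1. The form of 4077 bases had 505 and 297. Fzd6 as a whole did not pass the test (ratio 0.916, adjusted p = 0.277, exact test).

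**Figure D4:**
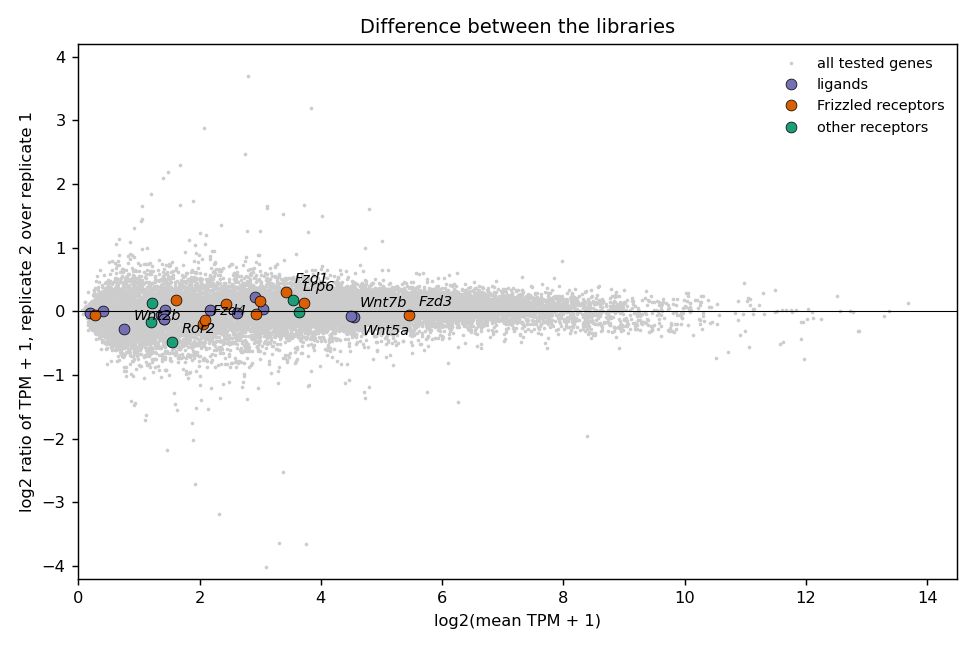
Log2 ratio of TPM + 1, replicate 2 over replicate 1, against the log2 of mean TPM + 1 for all tested genes in grey and the tested ligands and receptors in colour, with the genes that passed the binomial test named. Ror2 lies lowest of the coloured points and Fzd1 highest, both inside the grey cloud.

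Markers of other cells in the tissue differed between the libraries too, to an extent that varied by list. Over all genes tested, 34.4% were called, 15.7% higher and 18.7% lower in replicate 2. Of 7 choroid plexus markers, 6 reached 1 TPM in both. The 7 summed to 1168 TPM in replicate 2 and 1930 TPM in replicate 1. All 7 were tested, with 5 called lower and 1 higher, or 85.7%. The 8 meningeal and fibroblast markers, all detected and tested, summed to 685.4 and 814.5 TPM. Of these, 7 were called lower in replicate 2, or 87.5%. The 7 markers of the roof plate and rhombic lip summed to 65.3 TPM in replicate 2 and 73.4 TPM in replicate 1. Of the 6 tested, 2 were called higher and 3 lower, or 83.3%. Without Msx1, at 20.5 and 29.6 TPM, the other 6 summed to 44.8 TPM in replicate 2 and 43.8 TPM in replicate 1. The 7 markers of the midbrain-hindbrain boundary summed to 66.8 and 49.4 TPM. Of the 6 tested, 3 were called higher and 2 lower, or 83.3%. Called higher were Cnpy1, En1 (5.05 TPM in replicate 2 and 2.13 in replicate 1) and En2 (0.79 and 0.05 TPM). The more abundant Pax2 (15.2 and 17.5 TPM) and Pax8 (19.6 and 26.2 TPM) were called lower. The direction of the sum rests on Cnpy1, at 24.7 TPM in replicate 2 and 1.79 TPM in replicate 1. The other 6 summed to 42.1 and 47.6 TPM, the opposite direction. These sums without 1 gene were computed after the values were seen. The 6 endothelial markers were close, at 168.6 and 171.4 TPM, with 2 called lower of the 6 tested, or 33.3%. Microglia markers, 5 in all, summed to 57.5 TPM in replicate 2 and 61.3 TPM in replicate 1. Of the 5 tested, 1 was called lower, or 20%. Neuron markers summed to 3027 and 2903 TPM, with 1 called lower of the 5 tested, or 20%. Radial glia markers summed to 2417 and 2430 TPM, with 1 called higher and 2 lower of the 5 tested, or 60%. Of the 9 markers of hindbrain position, all tested, 0 were called higher and 7 lower in replicate 2, or 77.8%. Of 3 forebrain markers tested, Lhx2 and Six3 were called higher, Six3 on 19 expected counts in replicate 2 and 1 in replicate 1. The part of these cell types and positions in the differences of Wnt2b, Wnt5a, Wnt7b, Fzd1, Fzd3, Fzd4, Lrp6 and Ror2 was not tested.

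Most of the other listed pathway genes were detected as well. Of 83 further pathway genes in 9 lists, 71 reached 1 TPM in both libraries, or 85.5%. The shares were 34.8% over all genes and 62.5% over protein-coding genes. Of the 78 tested, 11 were higher in replicate 2 and 19 lower, or 38.5% called against the 34.4% of all genes. Their median log2 ratio of TPM + 1 was 0.05, against -0.01 for the 34 ligands and receptors and 0 for all genes. Among genes at 1 TPM or more in both libraries, the median was -0.02 for the 24 ligands and receptors and 0.05 for all genes.

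Both genes for ligand secretion were detected. Wls, which carries Wnt proteins to the cell surface, had 55.4 TPM in replicate 2 and 60.3 TPM in replicate 1 and was called lower. Porcn, whose enzyme attaches the lipid, had 37.9 and 35.4 TPM and was not called.

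Secreted inhibitors were abundant beside the ligands. Of 16 listed, 12 were detected, 0 were called higher and 6 lower of 13 tested, or 46.2% called against 34.4% of all genes in either direction and 18.7% lower. Igfbp4, an IGF-binding protein that also inhibits Wnt signalling, averaged 105.6 ± 6.24 TPM, Sfrp2, which binds Wnts, 52.1 ± 11.1 TPM, and Dkk3 24.1 ± 1.71 TPM, and all 3 were called lower in replicate 2, with Sostdc1, Sfrp1 and Frzb. The choroid plexus, meningeal and hindbrain position markers given above were also mostly called lower in replicate 2. The part of these cells and positions in the inhibitor levels was not tested. The 16 genes summed to 247.3 TPM in replicate 2 and 282.8 TPM in replicate 1, more than the 19 ligands in both libraries.

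Of 6 membrane inhibitors, 4 were detected, led by Apcdd1 at 11.7 ± 0.693 TPM, Shisa2 at 4.77 ± 0.672 TPM and Kremen1, a receptor for Dkk proteins, at 3.83 ± 0.955 TPM. Kremen1 was called lower in replicate 2 and Shisa3 higher, or 33.3% of the 6 tested, against 34.4% of all genes. Of 9 R-spondin pathway genes, 6 were detected, led by the receptor Lgr4 at 10.7 ± 0.0636 TPM, Znrf3, a ligase that removes Frizzleds from the membrane, at 6.04 ± 0.0566 TPM, and Rspo3 at 2.81 ± 0.509 TPM. Rspo1 and Rspo4 were called lower in replicate 2, and 0 genes of this list higher, or 22.2% of the 9 tested.

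Of 8 genes for norrin and for co-receptors selective for ligands, 7 were detected. Of the 7 tested, 1 was called higher and 3 lower, or 57.1%, against 34.4% of all genes. Gpc3, a glypican, averaged 89.2 ± 10.2 TPM and was called lower, Tspan12, a co-receptor for norrin with Fzd4, averaged 60.8 ± 4.54 TPM and was called higher, and Ptk7 averaged 15.8 ± 0.495 TPM and was called lower. Reck, which with Adgra2 makes cells respond to Wnt7a and Wnt7b, had 5.01 TPM in replicate 2 and 5.73 TPM in replicate 1 and was also called lower. Adgra2 had 1.98 and 1.47 TPM but fewer scaled counts in replicate 2 (ratio 0.858), and was not called.

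Inside the cell, the 12 genes of the Dishevelled proteins and the beta-catenin destruction complex were all detected, with 3 called higher and 2 lower. These calls were 41.7% of the 12 tested, against 34.4% of all genes. Ctnnb1, which encodes beta-catenin, had 300.7 TPM in replicate 2 and 261.3 TPM in replicate 1 and was called higher. Csnk1a1, a kinase of the complex, averaged 234.6 ± 6.77 TPM and was called lower, and Apc2 averaged 162.8 ± 11.5 TPM and was not called. All 13 nuclear effectors were detected, led by Ctnnbip1, an inhibitor of beta-catenin, at 76.6 ± 1.82 TPM, Pygo2 at 39.1 ± 2.63 TPM and Bcl9 at 36.0 ± 0.212 TPM. Called higher were Bcl9l and the TCF/LEF factor Tcf7l2, the latter with 30.1 TPM in replicate 2 and 17.8 TPM in replicate 1. In this list 0 were called lower, so 15.4% of the 13 tested were called, against 34.4% of all genes.

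Of 6 genes known as targets of the pathway, 5 were detected. Of the 5 tested, 2 were called higher and 1 lower, or 60%, against 34.4% of all genes. Myc averaged 43.7 ± 0.856 TPM and was not called, Ccnd1 averaged 24.2 ± 4.36 TPM and was called higher with Sp5, and Nkd1 averaged 21.3 ± 2.19 TPM and was called lower. Axin2, the most widely used readout of the pathway, had 7.31 TPM in replicate 2 and 9.25 TPM in replicate 1 and was not called (ratio 0.906, adjusted p = 0.253, exact test). Most of these genes have other regulators.

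Of 11 planar cell polarity genes, 10 were detected. All 11 were tested, with 2 called higher and 3 lower, or 45.5%, against 34.4% of all genes. Vangl2, a core membrane protein of the system in which Fzd3 and Fzd6 act, averaged 38.6 ± 0.898 TPM, Celsr2, an atypical cadherin of the same system, 36.6 ± 5.39 TPM, and Daam1, an actin regulator, 30.1 ± 3.72 TPM. Vangl2 and Celsr2 were called lower and Daam1 higher. For Vangl2, the scaled counts were lower in replicate 2 (ratio 0.921) while the TPM was higher, at 39.3 against 38.0 TPM in replicate 1, so the direction depends on the unit. The same held for Celsr3.

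**Figure D5:**
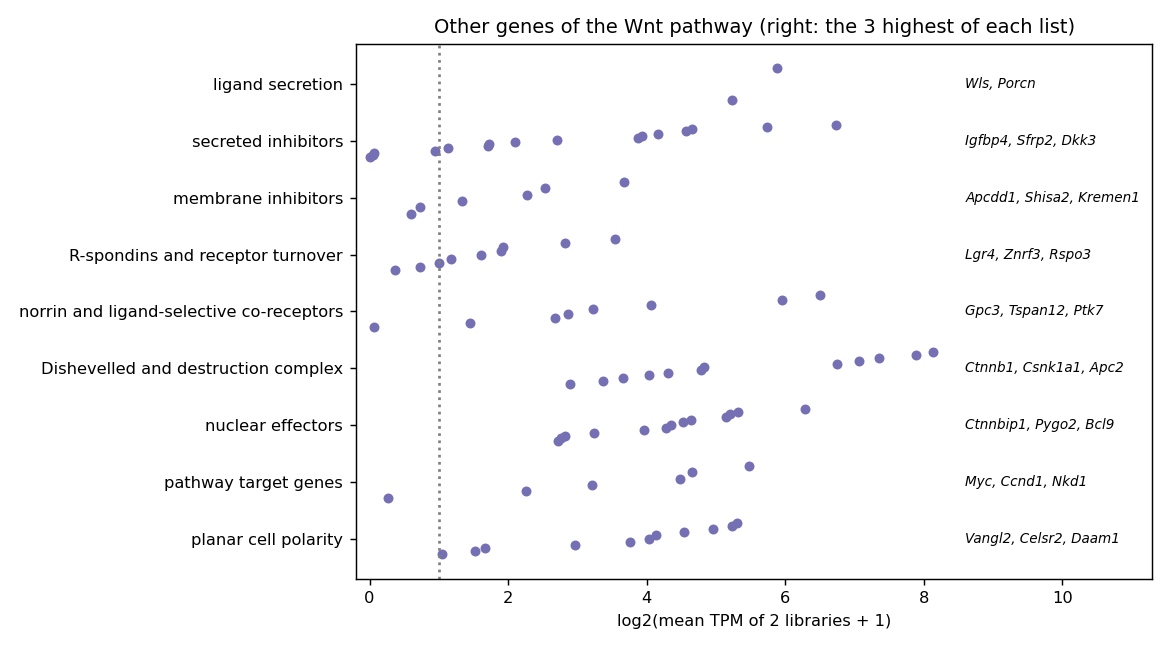
Mean level over both libraries of the 83 other pathway genes in 9 lists, 1 point per gene on a log2(TPM + 1) axis, with the dotted line at 1 TPM and the 3 highest genes of each list named at the right. The destruction complex reaches highest, with Ctnnb1 at a mean of 281.0 TPM.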

How the data were processed

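The mirVana kit was used for extraction, per the labels' protocols, and 10 ng of RNA longer than 200 nt with spike-in RNAs entered each library. Per the file headers and labels, the authors assigned reads to mm10 with annotation M4, separately per replicate. No aligner, quantification tool or strand setting is named in the labels or headers. Per the file headers, the values the authors deposited include an expected count, an unnormalised estimate of the reads of each gene or transcript. The deposited TPM and FPKM values were scaled by the authors for length and depth, over all features, spike-ins included (7.72% of TPM in replicate 2 and 8.15% in replicate 1). The deposited credibility bounds are score values around the authors' posterior mean, with no level stated.

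Identifiers were matched without version to GENCODE M21 (42462 genes with a symbol, 884 without), whose models can differ from M4. Detection was 1 TPM or more in both libraries. Expected counts were rounded for the exact two-sided binomial test. Log2 ratios used a pseudocount of 1, which understates changes of low genes. The test was checked on simulated data, but the libraries differed by a chi-square of 12.7 per gene, far beyond counting noise.

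The genes, pathway lists and markers were chosen with earlier results of these data known, and 1 listed marker of hindbrain position is not reported here. Named were all 34 genes and the 3 highest genes of each pathway list. Transcripts were named at 0.5 TPM or more in both libraries, for genes at 5 TPM or more. Other names are genes that passed the test in their list. Also named, after their values were seen, were Axin2, Adgra2, Lhx2, Emx1, Cnpy1, Msx1, Ryk-204, and the Wnt11, Ror2 and Fzd6 transcripts. Without a stated strand setting, reads of a gene and its antisense neighbour cannot be told apart: the exons of Wnt5a and Wnt7b share 358 and 324 bases with antisense genes (at most 0.8 and 0.27 TPM). Alternatives were other detection limits, FPKM, the posterior mean, rescaled TPM, TMM factors, DESeq2 size factors, spike-in scaling, other filters on low counts and pseudocounts, a minimum of 1.5-fold, and each replicate alone. Versions were edgeR 4.0.16 and DESeq2 1.42.0 in R 4.3.3, and scipy 1.17.1, pandas 2.3.3, matplotlib 3.10.9 and numpy 2.4.6 in Python 3.11.15.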

Additional observations from a re-analysis of the deposited data

How the results depend on the processing

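The count of detected ligands and receptors was 24 with the posterior mean, with rescaled TPM and with each replicate alone, 25 at 0.5 TPM, 16 at 2 TPM and 17 with FPKM. The detected pathway genes ranged over 71 to 73 with each replicate alone and over 64 to 77 under the other settings. Of the 8 ligands and receptors called between the libraries, 7 were called with TMM factors, 7 with DESeq2 size factors, 6 with no filter on low counts and 7 at a mean count of at least 50. With spike-in scaling 5 were called, 3 of them among the 8, while the calls over all genes came to 7711, or 43.7%, and the added ones were Wnt7a (adjusted p = 0.00616, exact binomial test) and Fzd2 (adjusted p = 0.0197, exact binomial test). With a minimum of 1.5-fold 2 were called, Wnt2b and Ror2, and the calls over all genes came to 1054, against 6079 without it. Spike-in scaling moved the median log2 count ratio of genes at 1 TPM or more to 0.11, against -0.01 with the gene total, and 80.6% of its calls over all genes were higher in replicate 2, against 45.7%. No paired analysis was possible because the libraries form a single group. Genes with a mean below 10 counts were not tested, and the order of the lowest ligands was not resolved at this depth.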
